A study of Mus musculus with 6 samples.

Results

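The 10 genes described here mark endothelial cells of the liver. They were taken by symbol from the deposited expression table, and all 10 were among its 24346 rows. Stab1, Stab2, Lyve1, Clec4g, Oit3 and Fcgr2b are markers of the sinusoidal endothelium, Kdr, Pecam1 and Cdh5 mark endothelium in general, and Vwf marks larger vessels. The levels of these markers were compared between livers in which hepatocyte lipophagy, the autophagic disposal of lipid droplets, was induced and control livers of the same steatohepatitis model. Male C57BL/6J mice, given as C57BL/6 in the labels, were 8 weeks old when they began CDAHFD, a high-fat diet lacking choline and defined by its L-amino acids, which induces steatohepatitis. After 6 weeks they received an AAV8 vector by intravenous injection and were returned to normal chow, and livers were taken 2 weeks later. The 3 control mice received LDTS-LIR mut, the lipid droplet-targeting signal of perilipin 1 joined to a mutated LC3-interacting region, and the 3 lipophagy mice received LDTS-eLIR, in which that region was engineered for strong LC3 binding. Both groups therefore carried the droplet-targeting signal, which is itself lipogenic, and the same diet history, and no liver without vector or diet was part of the comparison. The thyroxine-binding globulin promoter of the vectors directs expression to hepatocytes, so the endothelial cells were not the cells the construct was designed for.

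Liver sinusoids are lined by a thin endothelium with open pores and little basement membrane. These cells remove waste molecules and small immune complexes from the blood through scavenger and Fc receptors, and they signal to neighbouring hepatocytes and stellate cells. In chronic liver injury the sinusoidal endothelium is known to lose its pores and scavenger receptors and to take on features of ordinary capillaries, a process called capillarisation. Endothelial cells of larger vessels instead store von Willebrand factor for haemostasis. Because whole liver was sequenced, a lower level can mean fewer endothelial cells or less RNA per cell, and these cannot be told apart.

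Levels are given as FPKM, fragments scaled by transcript length and library size, as the authors deposited them. Steps in the low values gave an estimated depth of 23.7 to 33.9 M fragments in control livers and 22.8 to 24.7 M in lipophagy livers. Across genes the Spearman correlation between livers was 0.979 to 0.982, and 0 pairs of livers held identical values. Of the 10 markers, 9 reached a mean of 0.5 FPKM over the 6 livers and were tested with limma among 11493 genes. Vwf, with a mean of 0.298 FPKM, did not. The sources used here do not say more about the separate livers than a group and a number, so p-values measure the spread between these samples.

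No marker separated the groups. Of the 9 tested markers 0 had an adjusted p below 0.05 (limma), where 3 of all 11493 tested genes did, which is 0.0261%. At an unadjusted p below 0.05 there were 0 markers, beside 19.5% of all tested genes. The 2 groups overlapped for every one of the 10 markers, whereas 26.2% of all tested genes had groups that did not overlap. Means were higher in lipophagy livers for 7 tested markers and lower for 2, beside 54.5% higher and 45.5% lower over all tested genes. With every library scaled to the same sum of FPKM 3 were higher and 6 lower, beside 22.6% higher over all tested genes. Without control liver 1 the groups no longer overlapped for Clec4g, Lyve1 and Oit3, and their adjusted p was 0.339, 0.241 and 0.343 (limma), but in that comparison of 2 livers with 3 the groups of 37.2% of all tested genes did not overlap. The median difference in log2(FPKM + 1), lipophagy minus control, was 0.098 over the 9 markers and 0.020 over all tested genes. The 95% intervals of the markers, which are not adjusted for the number of genes tested, reached 0.28 to either side as a median. With 3 livers per group larger differences could also go uncalled, as for Clec4g at 0.43 (adjusted p = 0.280, limma).

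To show regulatory sequence of the markers the results turn on, promoter windows from 250 bases before to 50 bases after the annotated start are printed for Stab2, Fcgr2b and Kdr, whose levels put the livers in nearly the same order, and for Stab1, which did not follow them. RefSeq windows of GRCm38.p6 matched 5 of the 10 markers, the fifth being Clec4g. All lie on the minus strand and are written 5′ to 3′ along the gene, at chr10:87007893-87008192 for Stab2, chr1:170976022-170976321 for Fcgr2b, chr5:75978406-75978705 for Kdr and chr14:31168592-31168891 for Stab1. Capitals mark the ETS-type motif CAGGAAG.
Stab2: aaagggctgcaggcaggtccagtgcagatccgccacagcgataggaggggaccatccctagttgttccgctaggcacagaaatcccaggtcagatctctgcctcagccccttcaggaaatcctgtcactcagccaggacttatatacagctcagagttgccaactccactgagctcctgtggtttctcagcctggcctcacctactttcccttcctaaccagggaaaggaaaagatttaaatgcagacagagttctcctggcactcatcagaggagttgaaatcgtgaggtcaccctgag
Fcgr2b: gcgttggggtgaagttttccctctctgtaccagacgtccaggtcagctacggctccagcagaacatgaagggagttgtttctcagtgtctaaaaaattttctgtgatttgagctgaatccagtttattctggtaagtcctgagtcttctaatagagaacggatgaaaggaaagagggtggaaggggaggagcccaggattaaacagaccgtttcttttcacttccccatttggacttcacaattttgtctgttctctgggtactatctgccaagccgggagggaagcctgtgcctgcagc
Kdr: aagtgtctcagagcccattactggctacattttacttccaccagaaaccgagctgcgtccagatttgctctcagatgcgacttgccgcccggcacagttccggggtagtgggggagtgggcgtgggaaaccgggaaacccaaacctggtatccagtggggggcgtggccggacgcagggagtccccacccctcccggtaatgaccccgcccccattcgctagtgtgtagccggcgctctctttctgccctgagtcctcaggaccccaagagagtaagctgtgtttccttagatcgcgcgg
Stab1: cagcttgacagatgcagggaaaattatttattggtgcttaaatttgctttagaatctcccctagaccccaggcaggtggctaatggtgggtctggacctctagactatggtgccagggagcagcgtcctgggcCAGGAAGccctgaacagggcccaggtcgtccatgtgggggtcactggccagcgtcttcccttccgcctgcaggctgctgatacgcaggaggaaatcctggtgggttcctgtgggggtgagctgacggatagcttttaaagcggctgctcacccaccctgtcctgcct

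Both strands of the 5 windows were searched for 4 motifs. CAGGAAG was found in Stab1 alone, 117 bases before the start, and it is held by 13.3% of 32851 windows of the same length. CCGGAAG, a second ETS-type motif that shares the letters GGAAG, is held by 8.86% of all windows, the GATA-type motif AGATAAG by 3.04% and the AP-1 motif TGACTCA by 5.2%, and none of these was in the 5 marker windows. A match describes letters in a window and is not a measured binding site.

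Clec4g had the highest level of the markers, and it also showed the largest difference of means among them. It encodes LSECtin, a C-type lectin of sinusoidal endothelium (chr8:3707064-3720651, minus strand). Gene coordinates are those of GRCm38 in GENCODE M21. Its level was 18.2, 16.4 and 14.6 FPKM in control livers 1, 2 and 3 and 32.3, 19.3 and 18.0 FPKM in lipophagy livers 1, 2 and 3. Lipophagy liver 1 stood well above all others, while lipophagy liver 3 lay just under control liver 1. The mean was 16.4 ± 1.80 FPKM (SD, n = 3) in control and 23.2 ± 7.92 FPKM (SD, n = 3) in lipophagy livers, and the difference on the log2 scale was 0.43 ± 0.20 (SE, 95% interval -0.03 to 0.90, adjusted p = 0.280, limma). Without lipophagy liver 1 it was 0.18, and without both livers numbered 1 it was 0.25. The level was set by an estimated 500 to 986 fragments per liver, for which counting error is 3.92%, against a spread within groups of 29.0%.

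Oit3, a secreted zona pellucida domain protein made by sinusoidal endothelium in the liver (chr10:59422958-59441778, minus strand), had the next largest difference. Control livers 1, 2 and 3 were at 2.18, 1.80 and 1.55 FPKM and lipophagy livers at 3.19, 1.87 and 2.27 FPKM. As for Clec4g, lipophagy liver 1 was highest, and lipophagy liver 2 lay among the controls. Means were 1.84 ± 0.314 and 2.44 ± 0.678 FPKM (SD, n = 3 each), with a log2 difference of 0.26 ± 0.15 (SE, 95% interval -0.08 to 0.60, adjusted p = 0.351, limma). Without lipophagy liver 1 it was 0.11, and without lipophagy liver 2 it was 0.39.

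The stabilins are large scavenger receptors, of which stabilin-2 clears hyaluronan from the circulation and stabilin-1 is also made by some macrophages. Stab2 (chr10:86841198-87008025, minus strand) was at 2.50, 1.90 and 2.19 FPKM in control livers 1, 2 and 3 and at 2.89, 2.01 and 2.48 FPKM in lipophagy livers. Stab1 (chr14:31139013-31168641, minus strand) was at 3.32, 3.31 and 3.15 FPKM in control and at 3.23, 2.63 and 3.27 FPKM in lipophagy livers. Stab1 was the steadiest of the 10 markers, with 5 livers within 3.15 to 3.32 FPKM and lipophagy liver 2 below them. The log2 difference was 0.11 ± 0.12 for Stab2 (SE, 95% interval -0.16 to 0.38, adjusted p = 0.614, limma) and -0.08 ± 0.089 for Stab1 (SE, 95% interval -0.28 to 0.13, adjusted p = 0.645, limma). Neither difference exceeded the spread between livers. Leaving out livers moved Stab2 between 0.0234 and 0.2073 (without lipophagy livers 1 and 2, in that order) and Stab1 between -0.1204 and -0.0030 (without lipophagy livers 3 and 2).

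Lyve1 encodes a hyaluronan receptor of lymphatic and sinusoidal endothelium (chr7:110850607-110863239, minus strand). It was at 1.02, 0.512 and 0.584 FPKM in control livers 1, 2 and 3 and at 0.991, 0.727 and 0.917 FPKM in lipophagy livers. Control liver 1 was the highest of all 6, and the other 2 controls lay below every lipophagy liver. The mean was 0.704 ± 0.272 FPKM in control and 0.878 ± 0.136 FPKM in lipophagy livers (SD, n = 3 each), with a log2 difference of 0.15 ± 0.12 (SE, adjusted p = 0.511, limma), which was 0.28 without control liver 1 and 0.0691 without control liver 2. Only an estimated 33.3 to 74.3 fragments lay behind each value, and counting error alone was 13.4%.

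Fcgr2b encodes the inhibitory Fc receptor for IgG, through which sinusoidal endothelium takes up immune complexes (chr1:170958617-170976547, minus strand). B cells and macrophages make it too. It was at 13.6, 10.1 and 10.8 FPKM in control livers 1, 2 and 3 and at 15.3, 10.5 and 11.5 FPKM in lipophagy livers. Livers numbered 1 were highest in both groups, and the other 4 lay between 10.1 and 11.5 FPKM. The log2 difference was 0.10 ± 0.15 (SE, 95% interval -0.25 to 0.45, adjusted p = 0.740, limma).

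**Figure D1:**
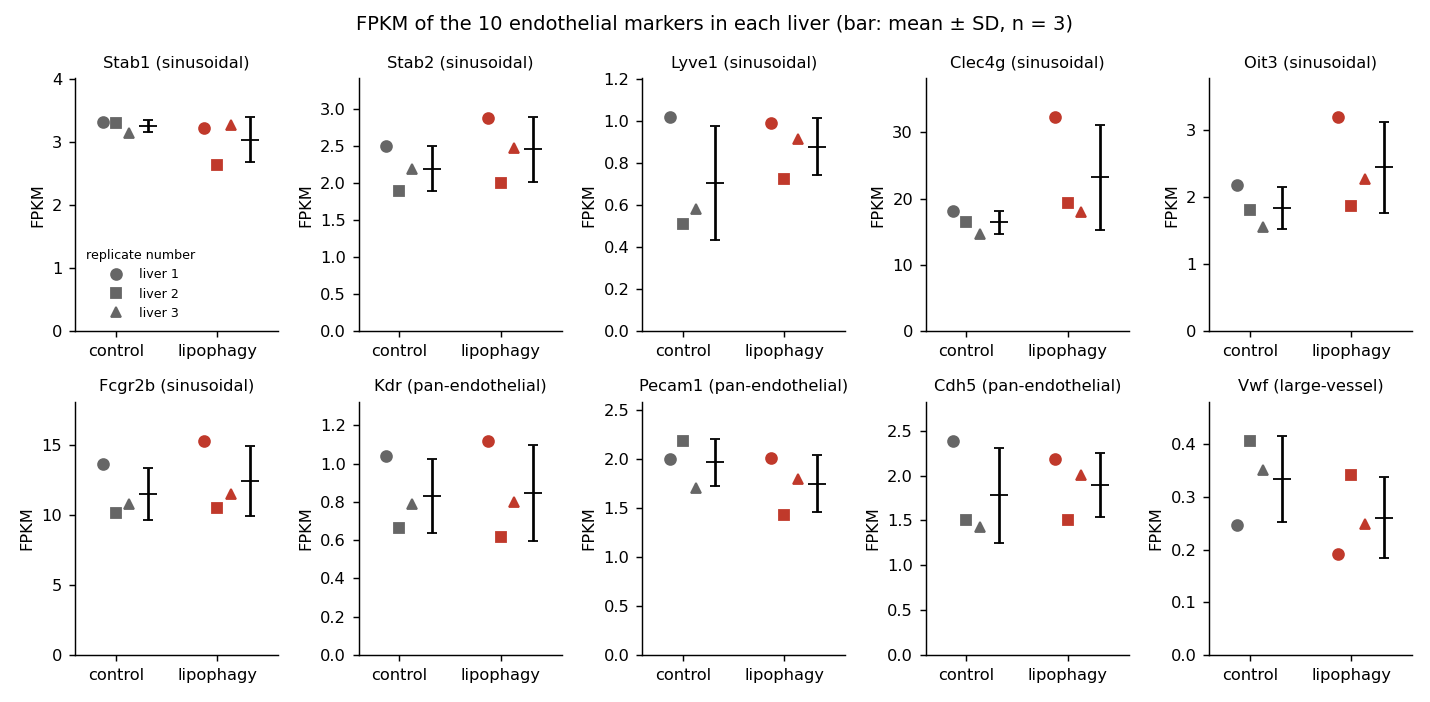
FPKM on linear axes from 0 of the 10 endothelial markers in each of the 3 control (grey) and 3 lipophagy (red) livers, with circles, squares and triangles for livers 1, 2 and 3 and bars for the mean ± SD. The points of the 2 groups overlap in every panel, and lipophagy liver 1 is the highest lipophagy point in 8 panels.

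For the pan-endothelial markers the log2 differences lay between -0.11 and 0.07. Kdr, the VEGF receptor 2 that carries the main growth signal of endothelium (chr5:75932827-75978458, minus strand), was at 1.04, 0.661 and 0.791 FPKM in control livers 1, 2 and 3 and at 1.12, 0.619 and 0.799 FPKM in lipophagy livers. The groups were nearly superimposed, with a log2 difference of 0.0078 ± 0.12 (SE, 95% interval -0.27 to 0.29, adjusted p = 0.978, limma). Cdh5, the VE-cadherin of endothelial junctions (chr8:104101625-104144511, plus strand), was at 2.39, 1.51 and 1.43 FPKM in control and at 2.19, 1.5 and 2.01 FPKM in lipophagy livers. Control liver 1 again stood above the other controls, and the log2 difference was 0.07 ± 0.15 (SE, adjusted p = 0.808, limma). Pecam1, an adhesion molecule of endothelial junctions that platelets and leukocytes also carry (chr11:106654217-106750628, minus strand), was at 2.0, 2.19 and 1.71 FPKM in control and at 2.01, 1.43 and 1.80 FPKM in lipophagy livers. Here control liver 2 was highest, and the log2 difference was -0.11 ± 0.11 (SE, 95% interval -0.36 to 0.13, adjusted p = 0.570, limma).

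Vwf encodes von Willebrand factor, the platelet-binding protein stored by endothelium of larger vessels and by megakaryocytes (chr6:125546774-125686679, plus strand). It was at 0.246, 0.407 and 0.351 FPKM in control livers 1, 2 and 3 and at 0.191, 0.342 and 0.248 FPKM in lipophagy livers. The livers numbered 1 were the lowest of their groups, the reverse of most other markers. Means were 0.335 ± 0.0817 and 0.261 ± 0.0763 FPKM (SD, n = 3 each, two-sided exact permutation test, p = 0.3). The smallest p that this test allows for 3 against 3 livers is 0.1. When genes down to a mean of 0.1 FPKM were tested, the adjusted p of Vwf was 0.561 (limma).

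**Figure D2:**
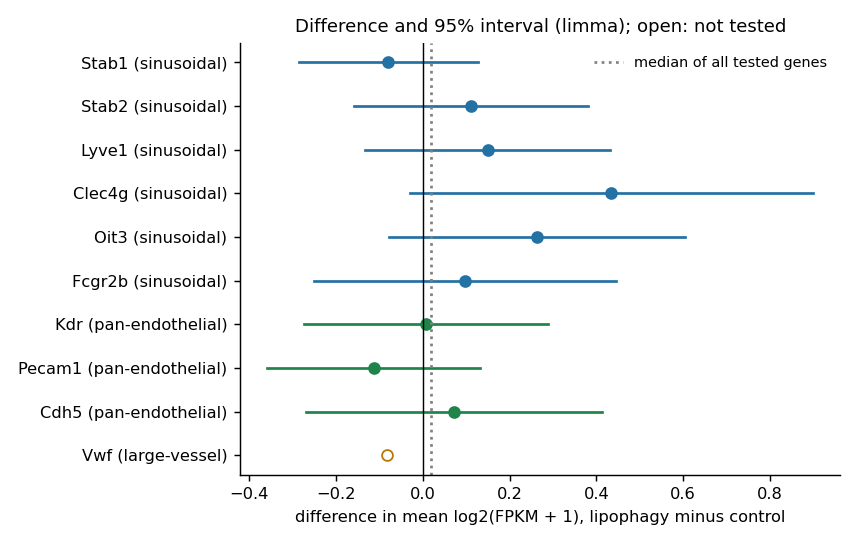
Difference in mean log2(FPKM + 1), lipophagy minus control, for the 9 tested markers with 95% intervals from limma, and for Vwf as an open circle without a test. Every interval crosses 0, and the dotted line marks the median of all tested genes at 0.020.

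In FPKM, which is scaled to transcript length, the order of mean levels over the 6 livers was Clec4g at 19.8, Fcgr2b at 12, Stab1 at 3.15, Stab2 at 2.33, Oit3 at 2.14, Pecam1 at 1.86, Cdh5 at 1.84, Kdr at 0.837, Lyve1 at 0.791 and Vwf at 0.298 FPKM. The upper part of this order held in every liver, since Clec4g exceeded Fcgr2b, Fcgr2b exceeded Stab1 and Stab1 exceeded Stab2 in 6 of 6. Stab2 was above Oit3 in 5 livers and Oit3 above Pecam1 in 4, so these neighbours did not differ beyond their spread. Pecam1 was above Cdh5 in 2 livers and Kdr above Lyve1 in 4. Cdh5 exceeded Kdr and Lyve1 exceeded Vwf in all 6 livers. The labelled tissue thus held sinusoidal markers at higher levels than the large-vessel marker in each sample, with all 10 detected in each.

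The same livers tended to be high for many markers. Control liver 1 was the highest control for 8 of the 10 markers, all but Pecam1 and Vwf, and lipophagy liver 1 the highest lipophagy liver for 8, all but Stab1 and Vwf. Lipophagy liver 2 was the lowest of its group for 8 markers, all but Clec4g and Vwf. Over the 6 livers Stab2, Lyve1, Fcgr2b, Kdr, Cdh5, Oit3 and Clec4g correlated with each other with a Pearson r of 0.55 to 0.96, with a median of 0.84 over 21 pairs. Stab2 and Fcgr2b ranked the livers identically. Stab1 and Pecam1 followed each other at 0.88 but tracked the other 7 less closely, with a median of 0.335. Vwf ran against the rest, from -0.97 with Stab2 to -0.14 with Pecam1, with a median of -0.88. These coefficients are a description without a test, because the points share libraries and 2 groups, and the markers were grouped after their values were seen.

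Markers were also compared with each other within a liver. The mean log2(FPKM + 1) of the 6 sinusoidal markers minus that of the 3 pan-endothelial markers was 0.997, 0.974 and 1.02 in control livers 1, 2 and 3, against 1.25, 1.17 and 1.10 in lipophagy livers. All 3 lipophagy livers lay above the controls, with means of 1.17 ± 0.075 and 0.998 ± 0.025 (SD, n = 3 each). Of single tested genes 26.2% also had groups that did not overlap. The same comparison between the lists of further genes, given below, had overlapping groups. The difference between groups, 0.17, was 0.11 under quantile normalization, where control livers lay between 0.995 and 1.04 and lipophagy livers between 1.08 and 1.19. Clec4g accounted for part of this. Without it the difference was 0.635, 0.594 and 0.673 in control and 0.776, 0.756 and 0.729 in the lipophagy group, still without overlap. No p is given, since the markers were chosen with earlier results of these data known.

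Set against Vwf instead, the sinusoidal markers gave groups that overlapped. Their mean log2 level minus that of Vwf was 2.14, 1.73 and 1.78 in control livers 1, 2 and 3, against 2.44, 1.85 and 2.09 in lipophagy livers. The ratio of Stab2 to Vwf in FPKM was 10.2, 4.67 and 6.23 in control and 15.1, 5.88 and 10 in lipophagy livers, with the livers numbered 1 highest in both. The ratio of Clec4g to Stab1 was 5.49, 4.95 and 4.65 in control and 10, 7.34 and 5.52 in lipophagy livers, where the nearest livers of the 2 groups stood at 5.52 and 5.49. This pair was not among the planned comparisons. Of the tested markers Clec4g had the largest rise and Stab1 was 1 of the 2 with lower means, so the ratio repeats those differences.

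**Figure D3:**
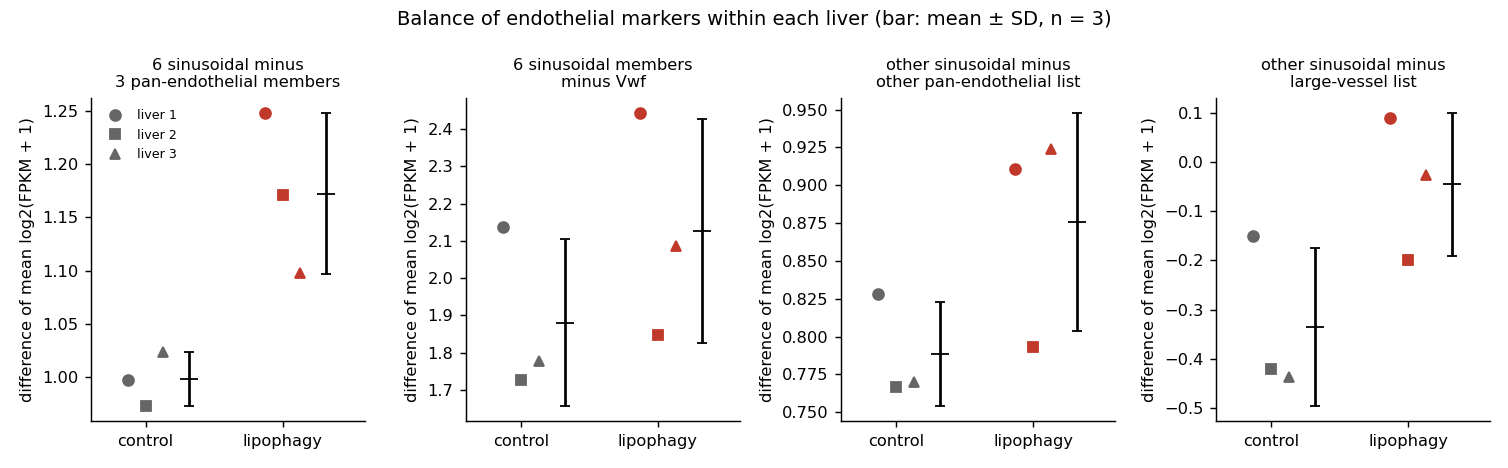
Within each liver, the difference in mean log2(FPKM + 1) between 2 gene groups, for 3 control (grey) and 3 lipophagy (red) livers with the mean ± SD, where axes do not start at 0. In the first panel, sinusoidal minus pan-endothelial markers, the lipophagy livers (1.10 to 1.25) lie above the controls (0.974 to 1.02), and in the other 3 panels the groups overlap.

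Other genes of the same cell types were taken from lists written by hand. Of 21 further sinusoidal genes, 17 were tested, of which 14 had higher and 3 lower means, 0 had an unadjusted p below 0.05, and the median log2 difference was 0.081 (limma). The higher extremes were Dnase1l3, a secreted DNase, at 0.31 and Ehd3, an endocytic recycling protein, at 0.27. The lower extremes were Gata4, a transcription factor of sinusoidal identity, at -0.28 and Dab2, a clathrin adaptor, at -0.14. When all libraries were scaled to the same sum of FPKM, 7 were higher and 10 lower. Without lipophagy liver 1 the median was 0.0215, with 3 of 17 at an unadjusted p below 0.05, beside 12.7% of all tested genes in that fit. Over all 21 with no filter the median was 0.052. Of 30 further pan-endothelial genes, 25 were tested, with 12 higher, 13 lower and a median of -0.0057. Of these 1 passed an unadjusted p of 0.05, Egfl7, a matrix protein of blood vessels, at 0.19 (adjusted p = 0.255, limma). With all 6 livers both lists thus fell below the 19.5% of all tested genes. The pan-endothelial split was 18 higher and 7 lower under quantile normalization, and 7 higher and 18 lower with the same sum of FPKM. Cldn5, a tight junction protein, was at 0.20, S1pr1, a sphingosine phosphate receptor, at -0.23 and Ecscr, a regulator of endothelial migration, at -0.49. Within a liver, the mean log2 level of the sinusoidal list minus that of the pan-endothelial list was 0.828, 0.767 and 0.770 in control livers 1, 2 and 3, against 0.911, 0.793 and 0.924 in lipophagy livers, with overlapping groups.

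Genes of larger vessels and of capillarised endothelium, the class to which Vwf belongs, mostly had lower means in lipophagy livers. Of 25 genes 16 were tested, of which 12 had lower and 4 higher means with a median log2 difference of -0.27, beside 0.020 over all tested genes. Over all 25 genes, with no filter on low values, the median was -0.10, and over the 23 with a mean of at least 0.1 FPKM it was also -0.10. An unadjusted p below 0.05 was reached by 7, all lower, namely Mgp, Cd34, Ly6a, Icam1, Col4a1, Cav1 and Nr2f2, and an adjusted p below 0.05 by 0 (limma), where the unadjusted share over all tested genes was 19.5%. The groups did not overlap for 4 of the 16, close to the 26.2% over all tested genes. Cd34, a sialomucin of capillary endothelium, was at 1.5, 1.80 and 2.15 FPKM in control livers 1, 2 and 3 and at 0.853, 1.12 and 1.10 FPKM in lipophagy livers, with no overlap and a log2 difference of -0.47 (adjusted p = 0.134, limma). Mgp, a matrix protein that binds mineral, was at 3.10, 5.51 and 3.73 FPKM in control and at 1.40, 3.21 and 1.52 FPKM in lipophagy livers, where lipophagy liver 2 overlapped the controls (-0.77, adjusted p = 0.177, limma). Gja4, an arterial gap junction protein, was at 0.28, and Ephb4, a venous ephrin receptor, at 0.06. The mean log2 level over the tested genes of this list was 2.50, 2.59 and 2.61 in control livers 1, 2 and 3, against 2.37, 2.40 and 2.28 in lipophagy livers. Leaving out single livers or both livers numbered 1 gave medians of -0.32 to -0.20. Between 5 and 10 genes then had an unadjusted p below 0.05, beside 12.7% to 22.2% of all tested genes. The groups did not overlap for 4 of the 16 without control liver 3 and for up to 11 without both livers numbered 1, beside 34.5% and 46.0% of all tested genes. Several of these genes are made by other liver cells as well, among them Icam1, Col4a1, Mgp and Cd9, and their part in the result was not tested.

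Kdr belongs to a signalling system in which VEGF ligands, angiopoietins and Notch ligands guide endothelial growth and fate. Of 24 other genes of this system 16 were tested, with 5 higher and 11 lower and a median log2 difference of -0.069, which was -0.034 over all 24 with no filter. Among the tested genes Flt4 was also on the list of further sinusoidal genes, and Tek and Tie1 on that of further pan-endothelial genes. Vegfc, the ligand of lymphatic growth, was at 2.29, 1.92 and 2.45 FPKM in control livers 1, 2 and 3 and at 1.59, 1.52 and 1.80 FPKM in lipophagy livers (-0.29, adjusted p = 0.182, limma). Jag1, a Notch ligand, differed by -0.22 (adjusted p = 0.232, limma). These 2 of 16 had an unadjusted p below 0.05 and groups that did not overlap, a smaller share than the 19.5% and 26.2% of all tested genes. Hes1, a Notch target, was at 0.42 and Nrp1, a VEGF coreceptor, at 0.12, both with overlapping groups. The split between higher and lower depended on the scaling, since quantile normalization gave 8 and 8 and the same sum of FPKM gave 2 and 14, with a median of -0.17. Without control liver 1 the median was 0.0182.

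Of 15 signals that liver endothelium sends to its neighbours, 9 were tested, with 1 higher and 8 lower and a median of -0.088. Over all 15 with no filter 3 were higher and 12 lower, with a median of -0.049. Pdgfb, a growth factor for stellate cells, was at 1.13, 1.08 and 1.35 FPKM in control livers 1, 2 and 3 and at 0.585, 0.809 and 0.633 FPKM in lipophagy livers. The groups lay apart, with a log2 difference of -0.39 (adjusted p = 0.134, limma). Rspo3, which sustains Wnt signalling around the central vein, differed by -0.21 (adjusted p = 0.219, limma), while Bmp2, the ligand that drives hepcidin in hepatocytes, was at 0.18 and Wnt2 at -0.0063. Pdgfb and Rspo3 were the 2 of 9 with an unadjusted p below 0.05, beside 19.5% of all tested genes. Under quantile normalization 4 were higher and 5 lower, while with the same sum of FPKM the median was -0.27, with 5 genes at an unadjusted p below 0.05 beside 23.8% of all tested genes. Without lipophagy liver 3 the median was -0.16.

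**Figure D4:**
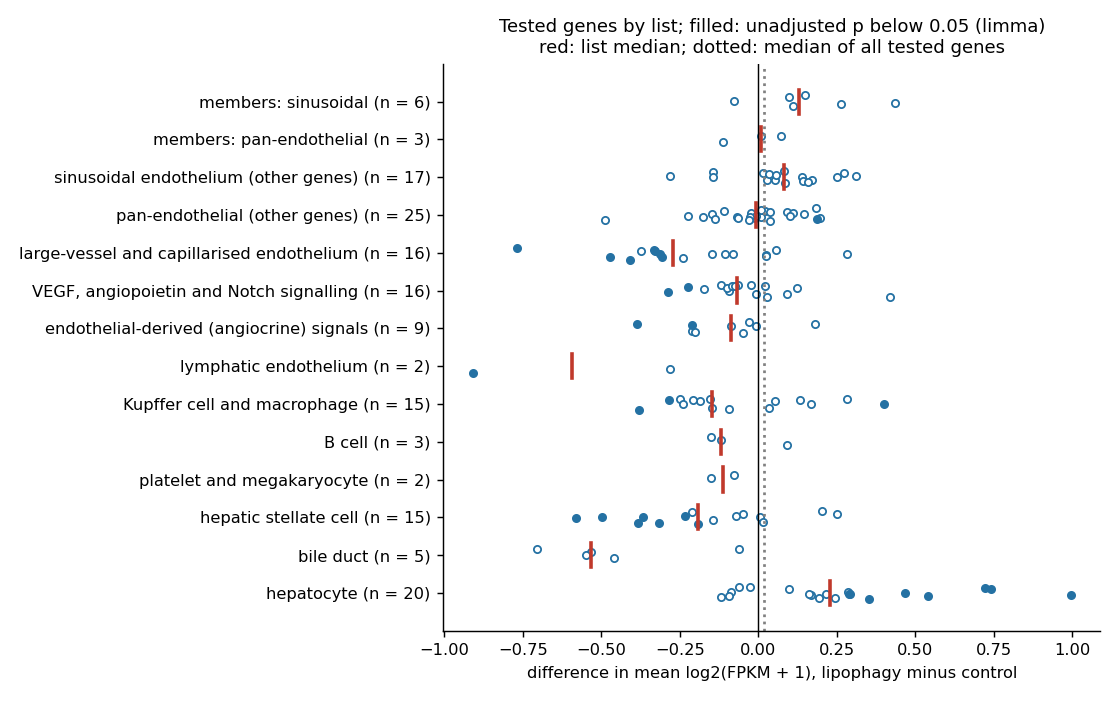
Difference in mean log2(FPKM + 1), lipophagy minus control, for each tested gene (points, filled where the unadjusted p from limma is below 0.05) by gene list, with the list median in red and the median of all tested genes dotted. The large-vessel and capillarised list has its median at -0.27 with 7 filled points, whereas the 6 sinusoidal markers have theirs at 0.13 with none filled, and with all libraries scaled to the same sum these medians were -0.40 and 0.024.

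Other cells of the liver contribute to some of these markers or change how much of the RNA is endothelial. Of 20 hepatocyte genes 15 had higher and 5 lower means, 8 of them with an unadjusted p below 0.05 and 0 with an adjusted one (limma), with a median of 0.23 that became 0.0138 under quantile normalization and 0.0466 with the same sum of FPKM, beside 19.5% of all tested genes at an unadjusted p below 0.05. Alb was at 38600, 35500 and 39200 FPKM in control livers 1, 2 and 3 and at 64100, 45000 and 49100 FPKM in the lipophagy group. Tat and Pck1 were the highest at 1.0 and 0.74, and Trf and C3 the lowest at -0.12 and -0.09. Of 15 macrophage genes, which bear on Stab1 and Fcgr2b, 6 were higher and 9 lower with a median of -0.15, and 3 had an unadjusted p below 0.05. The median was -0.33 with the same sum of FPKM, where 8 had an unadjusted p below 0.05 beside 23.8% of all tested genes. It was -0.24 under quantile normalization, where 7 did beside 14.3%. Without lipophagy liver 3 it was -0.0737, where 3 did beside 22.2%, and without control liver 1 it was -0.20, where 7 did beside 16.2%. Over all 17 genes of the list, with no filter, 8 were higher and 9 lower with a median of -0.0944. Their summed level was 902 to 1120 FPKM in control and 864 to 1030 FPKM in lipophagy livers. The Kupffer cell markers Clec4f and Vsig4 were at 0.17 and 0.40 and Fcna at 0.28, while Cd68 and Csf1r were at -0.38 and -0.28. Stellate cell genes had a median of -0.19, with 11 of 15 lower and 7 of these at an unadjusted p below 0.05, and of -0.32 with the same sum of FPKM. They ranged from Col3a1 at -0.58 and Lum at -0.50 to Colec10 at 0.20 and Lrat at 0.25. Their part in the marker values was not tested.

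Genes of other cell types that can also make Fcgr2b, Vwf or Lyve1 were measured as well. B cell genes, of which 3 of 8 were tested, summed to 3.62 to 5.94 FPKM in control and 2.98 to 4.75 FPKM in lipophagy livers, with Cd22 at -0.15, Cd79a at -0.12 and Cd79b at 0.09. Platelet genes, of which 2 of 9 were tested, summed to 7.18 to 9.75 and 6.42 to 8.70 FPKM, with Pf4 at -0.15 and Itga2b at -0.08, and 0 genes of either list had an unadjusted p below 0.05 (limma). Genes of lymphatic endothelium, of which 2 of 4 were tested, summed to 3.66 to 5.04 FPKM in control and 1.98 to 2.74 FPKM in lipophagy livers. Among them Ccl21a, a lymphatic chemokine, differed by -0.91 (adjusted p = 0.224, limma), and Prox1, a lymphatic transcription factor that hepatocytes also make, by -0.28. The groups overlapped for both of these genes. In control liver 1 most of the sum was Prox1, at 3.10 FPKM, with Ccl21a at 0.337 FPKM, below the 0.745 FPKM of lipophagy liver 2. With no filter the platelet median moved from -0.11 over 2 genes to 0.016 over 9, and the lymphatic median from -0.59 over 2 to -0.22 over 4. The part of these cells in the marker values was not tested. The share at an unadjusted p below 0.05 over all tested genes was 19.5%. Bile duct genes put the livers in an order close to that of Vwf. Krt19, a keratin of bile duct cells, was at 1.91, 4.16 and 4.05 FPKM in control livers 1, 2 and 3 and at 1.43, 3.36 and 1.37 FPKM in lipophagy livers. Their 5 tested genes were all lower in mean, with a median of -0.53, Spp1 at -0.71, Epcam at -0.55, Krt7 at -0.46, Sox9 at -0.06 and 0 at an unadjusted p below 0.05 (limma). Without control liver 1 the median was -0.80, and without lipophagy liver 2 it was -0.82, with 4 of 5 at an unadjusted p below 0.05 in each, beside 16.2% and 16.8% of all tested genes in these fits. Their part in the Vwf values was not tested.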

How the data were processed

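Whole liver RNA of 3 control and 3 lipophagy mice was sequenced from stranded mRNA libraries in paired-end mode. The authors deposited FPKM values per gene symbol and liver, scaled to transcript length and mapped fragments. The submitters' processing notes name TopHat2 2.0.13, Bowtie2 2.2.3, SAMtools 0.1.19, Cufflinks 2.2.1 and mm10. The annotation is not given in the sources used here. Because FPKM values are already normalized, no model for counts was fitted.

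From them log2(FPKM + 1) was computed, which understates differences of low genes. Genes whose mean reached 0.5 FPKM entered limma 3.58.1, run in R 4.3.3 (moderated variance with trend, no covariates, two-sided), with Benjamini-Hochberg adjustment over 11493 genes and a threshold of 0.05. Single values were compared by a two-sided exact permutation test. Depth was estimated from the steps of low values and GENCODE M21 transcript lengths less 150 bases, and fragment numbers cover counting error only. Promoters were RefSeq, GRCm38.p6. Tables used Python 3.11.15, pandas 2.3.3, numpy 2.4.6, scipy 1.17.1 and matplotlib 3.10.9.

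Named were all 10 markers, the 2 highest and 2 lowest tested genes of each list by log2 difference, defining markers of other cell types, and the 5 genes most like the marker mean. Other genes named for an unadjusted p below 0.05, Krt19 and genes made by several cell types were chosen after their values were seen. Members and lists were chosen with earlier results of these data known. Alternatives were other pseudocounts, filters and scalings, limma without the trend, liver weights, the replicate number as a block, and livers left out.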

Additional observations from a re-analysis of the deposited data

How the results depend on the processing

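Across 18 alternatives the 9 tested markers gave 160 values and Vwf, where filters let it in, gave 2. Of these 162 values 151 kept their direction and side of the threshold and 11 changed sign, and the lowest adjusted p of any marker was 0.172 (limma). Scaling all libraries to the same sum of FPKM moved the median of all tested genes from 0.020 to -0.12 and the share with a higher mean from 54.5% to 22.6%. The split at an unadjusted p below 0.05 went from 1327 higher and 916 lower to 236 and 2504. Under this scaling Stab2 was at -0.018, Fcgr2b at -0.072, Kdr at -0.079 and Cdh5 at -0.0485, 6 markers were lower and 1, Stab1, had groups that did not overlap, beside 29.9% of all tested genes. Quantile normalization gave 743 higher and 901 lower. With liver quality weights Kdr was at -0.0026 and 1 marker, Clec4g, had an unadjusted p below 0.05, beside 23.0% of all tested genes. Genes with an adjusted p below 0.05 numbered 3, and 1 without a filter, 104 with the same sum and 39 with weights. The sinusoidal minus pan-endothelial difference between groups, 0.17, was 0.11 after quantile normalization, 0.23 with a pseudocount of 0.1 and 0.12 without Clec4g, the last chosen after seeing the data.

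Leaving out 1 liver, or both livers numbered 1 (added after seeing the data), gave 1 to 11 genes at an adjusted p below 0.05 (7 without both livers numbered 1) and 1464 to 2552 at an unadjusted p below 0.05, where the lowest was without lipophagy liver 1. It gave 0 to 2 markers at an unadjusted p below 0.05, beside 12.7% to 22.2% of all tested genes, 2 to 4 lower markers and 0 to 3 whose groups did not overlap, the 3 being Clec4g, Lyve1 and Oit3 without control liver 1 or without both livers numbered 1, where 37.2% and 46.0% of all tested genes did not overlap. In the fits with 1 such marker, without control liver 3, lipophagy liver 2 or lipophagy liver 3, this share was 34.5%, 36.6% and 44.4%. Kdr ranged from -0.0955 to 0.0973, Cdh5 from -0.0156 to 0.2238, Fcgr2b from -0.0481 to 0.2143 and Clec4g from 0.1806 to 0.585. Kdr was at -0.0149 without both livers numbered 1.

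The sources used here do not say whether equally numbered livers were paired, and the samples were treated as unpaired. Deviations of equally numbered livers from their group means correlated at 0.25, 0.234 and -0.0565, and control liver 3 correlated best with lipophagy liver 2 at 0.251. With 3 livers per group these values cannot decide whether the numbers share a batch. With the replicate number as a block 43 genes had an adjusted p below 0.05, and 2 markers, Clec4g and Oit3, an unadjusted p below 0.05 (adjusted p = 0.172 and 0.254, limma), beside 17.8% of all tested genes under this block. Among the genes of the lists, Mgp and Ass1 had an adjusted p below 0.05 under it (0.0262 and 0.0445, limma). Ass1, a hepatocyte gene, also did with the same sum of FPKM (0.0421), with quality weights (0.0319) and without lipophagy liver 3 (0.0416), Col3a1 with the same sum (0.0452) and Hba-a2 without lipophagy liver 3 (2.28e-05). That liver was the only lipophagy liver with Hba-a2 at the level of the controls, so the call of Hba-a2 follows from leaving it out. Under the block 4 of 5 bile duct genes had an unadjusted p below 0.05, as with the same sum of FPKM.

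With 3 livers per group and 33.3 to 74.3 estimated fragments per liver for Lyve1 and 39.3 to 103 for Vwf, small differences of the low markers were not detectable.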

Other observations

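The genes whose levels followed the mean of the 10 markers most closely over the 6 livers were on none of the lists. They were Gypc, a membrane protein, with a Pearson r of 0.994, Art3 at 0.988, Nup107, a nuclear pore subunit, at 0.987, Arvcf, a catenin, at 0.982 and Fan1, a DNA repair nuclease, at 0.981. Gypc was at 2.28, 1.76 and 1.55 FPKM in control livers 1, 2 and 3 and at 2.80, 1.46 and 2.06 FPKM in lipophagy livers, with the livers numbered 1 highest in both groups. The coefficients describe 6 libraries and were picked as the highest of all tested genes, so they carry no p.

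Genes of red blood cells varied with single livers. Of 6 tested genes all had higher means in lipophagy livers, 2 of them, Alas2 and Hba-a2, with an unadjusted p below 0.05 and 0 with an adjusted one (limma), beside 19.5% of all tested genes at an unadjusted p below 0.05, and the median log2 difference was 1.12. Without lipophagy liver 2 the median was 0.29, with 5 genes higher, 1 lower and 0 at an unadjusted p below 0.05. Without lipophagy liver 3 it was 1.65, with 4 genes at an unadjusted p below 0.05, and Hba-a2 had an adjusted p of 2.28e-05 (limma). With liver quality weights the median was 1.80, with 5 genes at an unadjusted p below 0.05, beside 23.0% of all tested genes. Hba-a2 and Hbb-b2 had the largest differences, at 2.36 and 1.28, and Alas2 and Hba-a1 the smallest, at 0.26 and 0.88. Their summed level was 109 to 136 FPKM in control livers and 122 to 483 FPKM in lipophagy livers, the highest in lipophagy liver 2. The globin genes are near-identical copies that share reads, so their separate values are uncertain.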
